A study of Mus musculus with 6 samples.

Results

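The 10 genes described here, Epha3, Epha4, Epha5, Epha6, Epha7, Epha8, Ephb1, Ephb2, Ephb3 and Ephb6, encode Eph receptors of the developing cerebral cortex. The genes were chosen by name as a family and not by a measured value, although earlier results of these data were known. Only the choice among probe sets of a gene used the signal, as the highest mean. Of these, 9 could be read among the 19938 genes named by a single symbol on the array. Ephb2 was not analysed here. The samples were neocortex dissected from 6 mouse embryos at embryonic day 14.5, and each embryo was hybridised to its own Affymetrix whole-transcript array. The 3 controls were wild type for Bcl11a (Bcl11a+/+) and the 3 mutants carried a deleted floxed allele on both chromosomes (Bcl11aΔflox/Δflox). Bcl11a, also called Ctip1, is a DNA-binding zinc finger protein made by projection neurons of the cortex. The series text states that RNA was isolated from each embryo separately, so arrays were treated as biological replicates. The sources used here do not give the Cre line, the cells that lost the allele, the deleted exon, the strain or the litters.

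Eph receptors are receptor tyrosine kinases that bind ephrins, ligands held on the membrane of a neighbouring cell. EphA receptors mostly bind ephrin-A ligands, which are anchored by a lipid, and EphB receptors mostly bind ephrin-B ligands, which span the membrane, while Epha4 binds ligands of both classes. Contact often repels the axon or migrating cell that carries the receptor, and the ligand can signal back into its own cell. In the embryonic cortex these receptors are known for graded expression across areas, for the mapping of axons between thalamus and cortex, for crossing of the midline by callosal axons and for the placement of migrating neurons. Mutants were compared with controls to ask which of these receptor genes depend on Bcl11a, in a study whose title concerns the migration of cortical projection neurons through Sema3c.

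No receptor gene passed the threshold of a limma adjusted p under 0.05 over all genes, and the gene nearest to it was Ephb6. Ephb6 was higher in each of the 3 mutants than in any control, with a log2 difference of 0.31, or 1.24-fold. The other 8 genes differed by between -0.11 and 0.14 on the log2 scale, and in each of them the control and mutant arrays overlapped. At an unadjusted limma p under 0.05, Ephb6 was the 1 gene of the 9. Of all genes tested, 0.286% passed the adjusted threshold and 6.05% had an unadjusted p under 0.05. Of the 9 receptor genes, 4 had a positive difference and 5 a negative one, against 60.3% positive over all genes, and their median difference was -0.00042 against 0.02 over all genes. The number with a positive difference was 5 with quantile normalization or a sex covariate and 6 with median centring or array weights. Sources of RNA cannot be separated in whole tissue, so fewer cells of a type and less RNA per cell cannot be told apart.

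The targeted gene was lower in mutants. Bcl11a had a mean log2 signal of 12.25 in controls and 11.41 in mutants, a difference of -0.84 (limma adjusted p = 0.00201). The position of its probes within the gene, and so whether they cover the deletion, was not known here. The 6 arrays had medians between 7.23 and 7.33 and correlated with each other at 0.993 to 0.997. Readings of Xist and of 3 Y-linked genes gave 2 female controls and 1 female mutant. Genes of the neocortex list, such as Emx1, Tbr1, Neurod6 and Fezf2, were measured for 12 of 14 names, with array means of 11.53 to 11.60 in controls and 11.58 to 11.63 in mutants. None of the 12 passed. An unadjusted limma p under 0.05 was found for 2 of them (6.05% of all genes), and the groups did not overlap in 3 (10.5% of all genes). The largest difference was that of Bcl11b, 0.29 (limma adjusted p = 0.219). Markers of the midbrain and hindbrain, 9 measured of 10, had array means of 6.37 to 6.59 and 6.50 to 6.55.

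The promoters of 4 receptor genes are shown, picked after the values were seen. Ephb6 had the smallest p of the family. Epha4 had the difference closest to 0 and also holds the letters of a Bcl11a site. Epha5 and Epha7 had the highest correlation of the 36 receptor pairs (exact permutation p = 0.300 after Benjamini-Hochberg adjustment). Epha3, not shown, had a within-genotype r of 0.90 with Epha7 and 0.86 with Epha5. The sequences run 5′ to 3′ over the 250 bases before and 50 bases after the annotated start, as RefSeq gives them for build GRCm38.p6. Capitals mark TGACCA, the core letters that Bcl11a is known to recognise at globin promoters, and GGGCGG, the GC box bound by Sp1 family factors, on either strand (TGGTCA and CCGCCC). For Epha7 the table holds 2 overlapping starts, and the first is shown.
Ephb6, chr6:41605261-41605560, plus strand: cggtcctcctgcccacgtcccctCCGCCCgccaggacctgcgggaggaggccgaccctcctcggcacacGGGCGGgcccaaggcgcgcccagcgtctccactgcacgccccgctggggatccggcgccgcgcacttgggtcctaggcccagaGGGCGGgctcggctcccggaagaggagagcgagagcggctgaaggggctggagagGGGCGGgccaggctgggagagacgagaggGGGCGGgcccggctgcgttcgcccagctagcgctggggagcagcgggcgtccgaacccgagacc
Epha4, chr1:77515039-77515338, minus strand: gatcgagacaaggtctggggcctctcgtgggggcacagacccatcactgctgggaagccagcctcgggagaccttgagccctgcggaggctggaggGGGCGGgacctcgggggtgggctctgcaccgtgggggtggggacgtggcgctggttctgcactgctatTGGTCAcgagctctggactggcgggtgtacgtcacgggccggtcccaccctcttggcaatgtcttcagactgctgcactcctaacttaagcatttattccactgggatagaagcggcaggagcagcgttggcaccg
Epha5, chr5:84417333-84417632, minus strand: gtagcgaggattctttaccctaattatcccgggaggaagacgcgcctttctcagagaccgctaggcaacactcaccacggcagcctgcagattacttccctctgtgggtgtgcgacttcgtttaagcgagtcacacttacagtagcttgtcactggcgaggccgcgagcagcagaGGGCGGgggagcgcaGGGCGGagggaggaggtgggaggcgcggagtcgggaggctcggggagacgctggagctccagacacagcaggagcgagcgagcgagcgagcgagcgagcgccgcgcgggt
Epha7, chr4:28812881-28813180, plus strand: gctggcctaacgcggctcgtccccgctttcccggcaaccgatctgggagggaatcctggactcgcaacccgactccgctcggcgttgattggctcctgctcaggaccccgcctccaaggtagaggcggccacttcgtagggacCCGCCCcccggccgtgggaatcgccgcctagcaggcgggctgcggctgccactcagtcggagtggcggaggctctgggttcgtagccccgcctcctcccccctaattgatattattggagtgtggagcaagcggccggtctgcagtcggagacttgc

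In these windows, TGACCA was present in Epha4 and Epha6 and in no other of the 10 genes, Ephb2 included, against 13.6% of 32851 promoters of the same length. A GC box was present in 7 of the 10 genes, against 35.7% of all promoters. Matches to one motif that overlapped each other, as in Epha8, were each counted, and no match to TGACCA overlapped a GC box. The Ephb6 window held 5 GC boxes and 34 CpG dinucleotides and was 76.3% G and C, where the median over all promoters was 52.7%. This was not particular to Ephb6. The Epha8 window held 6 GC boxes and 56 CpG dinucleotides and was 84.3% G and C. The windows of all 10 genes were above that median, the lowest being Ephb1 at 55.7%. The Epha5 and Epha7 windows were 64.3% and 67.0% G and C, with 2 and 1 GC boxes. A match is a description of letters and not evidence of binding, and the absence of the letters says nothing of binding elsewhere.

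Ephb6 encodes a receptor whose kinase domain is catalytically inactive and which signals through partner receptors. Ephb6 (Entrez 13848, chromosome 6) read 9.01, 8.96 and 8.94 in control replicates 1, 2 and 3 and 9.40, 9.26 and 9.18 in mutant replicates 1, 2 and 3. The lowest mutant was above the highest control, and the mutants were more spread than the controls. The group means were 8.97 ± 0.03 and 9.28 ± 0.11 (SD, n = 3 arrays each). The log2 difference was 0.31 ± 0.07 (SE), with a 95% interval of 0.15 to 0.47, an unadjusted limma p of 0.00202 and an adjusted p of 0.196. By p it stood at rank 206 of 19938 genes. The exact two-sided permutation test gave p = 0.1, the smallest that 3 against 3 arrays allow. Groups that do not overlap, with mutants higher, were found in 7.69% of all genes, and in 10.5% in either direction.

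The Ephb6 difference stayed positive, between 0.25 and 0.36, whichever of the 6 arrays was left out, with adjusted p from 0.276 to 0.580. It passed with array weights estimated by limma (difference 0.30, adjusted p = 0.0474), where 217 genes passed in place of 57, and in none of the other fits. Those weights were 3.02 for control replicate 2, a male, and 2.18 for mutant replicate 2, a female. The other arrays had weights of 0.45 to 0.94, so that fit leaned on 1 array of each genotype. Among the fits that left out 1 array, the Ephb6 difference was smallest, 0.25, without mutant replicate 1, the array with the highest Ephb6 reading. The same array had the highest mean for pericyte and meninges genes, at 8.16, where mutant replicates 2 and 3 read 7.41 and 7.38 and controls 7.18 to 7.23. All 16 genes of that list were measured, 15 had positive differences and 1, Ptgds, rose. Mutant replicate 1 also had the highest mean of the 6 arrays for microglia and macrophage genes (7.42) and intermediate progenitor genes (10.70). The same held for endothelial (8.93) and thalamus and diencephalon genes (8.22), lists in which the groups overlapped. Microglia and macrophage genes, 13 measured of 14, all had positive differences, with array means of 7.01 to 7.13 in controls and 7.22 to 7.42 in mutants. Erythroid genes, 10 measured of 12, read 7.33 to 7.45 and 8.45 to 8.56, and 6 of them rose, among them the embryonic globin gene Hbb-bh1. Ganglionic eminence and striatum genes (10 measured of 11) read 8.42 to 8.45 and 8.52 to 8.56, with 8 positive differences and a median difference of 0.06. Ebf1 rose by 0.88, far above that median, and the next highest difference in the list was 0.10. The gap in the list means therefore came mostly from Ebf1. Foxp1 went the other way, by -0.20, with groups that did not overlap (limma adjusted p = 0.577). Intermediate progenitor genes (11 of 11) read 10.43 to 10.53 and 10.57 to 10.70, with 8 positive differences and a rise of Neurod4. Neurod4 differed by 0.66 and Dll3 by 0.53 (limma adjusted p = 0.0794), against a list median of 0.08. The gap in the list means came mostly from these genes. Radial glia genes (12 measured of 13) read 10.69 to 10.75 and 10.67 to 10.69, the groups being apart by less than the rounding, with 4 positive differences and no change past the threshold. Hopx had the largest difference of that list, -0.43 (limma adjusted p = 0.163), and the lower list means in mutants came mostly from it. Apart from the endothelial and thalamus lists, these were the 6 of 13 marker lists whose control and mutant array means did not overlap. The part of any list in the Ephb6 difference was not tested. For comparison, 60.3% of all genes had a positive difference. RMA signals have no true 0, so no marker can be called absent.

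**Figure D1:**
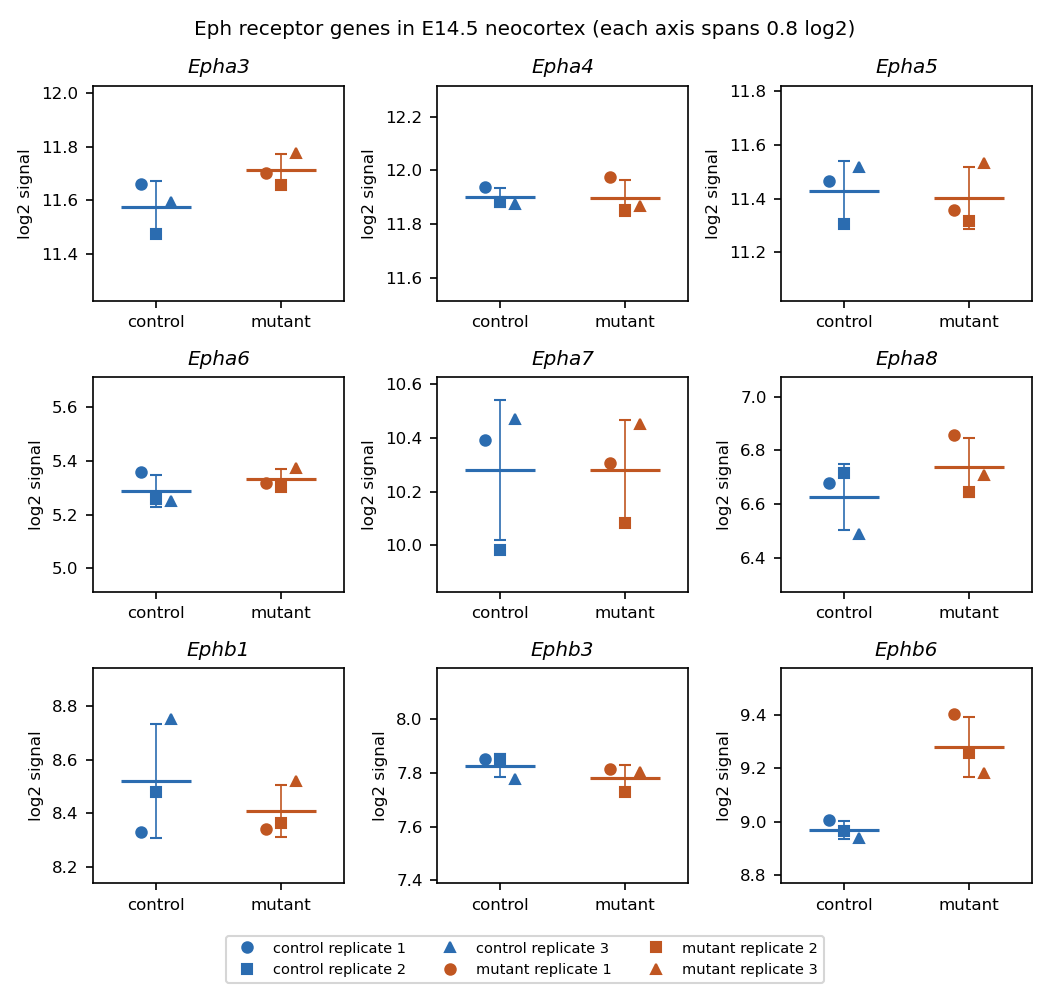
Log2 signal (vertical axes, each spanning 0.8 log2 units) of the 9 receptor genes in the 3 control arrays (blue) and 3 mutant arrays (orange), where the marker shape gives the replicate number, horizontal bars are means and error bars are SDs. The groups are apart for Ephb6, at 8.94 to 9.01 and 9.18 to 9.40, and overlap in the other 8 genes, and Epha7 has its lowest readings in control replicate 2 and mutant replicate 2.

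Among the EphA receptors, Epha4 is the receptor known for keeping corticospinal axons from recrossing the midline. Epha4 (Entrez 13838, chromosome 1) read 11.94, 11.88 and 11.87 in controls and 11.98, 11.85 and 11.87 in mutants. The 6 readings lay within 0.12 log2 units, at the 9.82nd percentile of such spreads over all genes tested, and neither genotype was higher. Its means were 11.90 ± 0.03 and 11.90 ± 0.07 (SD, n = 3 arrays each), and its 95% interval of -0.14 to 0.14 allows a change of up to 1.10-fold in either direction.

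Epha3 binds ephrin-A5 strongly and takes part in axon guidance and contact repulsion. Epha3 (Entrez 13837, chromosome 16) read 11.66, 11.47 and 11.59 in controls and 11.70, 11.66 and 11.78 in mutants. Control replicate 1 read slightly above the lowest mutant, so the groups overlapped by that array alone. The log2 difference was 0.14 ± 0.07 (SE), with a 95% interval of -0.02 to 0.29 and a limma adjusted p of 0.934. Without control replicate 2 the difference was 0.08, and without control replicate 1 it was 0.18.

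Epha5 takes part in the mapping of axons between thalamus and cortex, and Epha7 marks cortical areas and guides corticothalamic axons. Epha5 (Entrez 13839, chromosome 5) read 11.47, 11.31 and 11.52 in controls and 11.36, 11.32 and 11.53 in mutants. Epha7 (Entrez 13841, chromosome 4) read 10.39, 9.98 and 10.47 in controls and 10.31, 10.08 and 10.45 in mutants. In both genes replicate 2 was lowest and replicate 3 highest within each group, although replicate numbers name embryos and gave no sign of pairing over all genes. The differences were -0.03 for Epha5 (95% interval -0.22 to 0.16) and -0.0012 for Epha7 (-0.31 to 0.31). The Epha7 readings spread over 0.48 log2 units, more than 91.6% of genes tested, so its interval allows a change of up to 1.24-fold either way. Its sign was not stable, as it turned positive with median centring, array weights or the sex covariate and without control replicate 1 or 3 or mutant replicate 2.

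Epha5 and Epha7 followed each other across the 6 embryos more closely than any other of the 36 pairs of receptor genes. Pearson's r was 0.93 (exact permutation p = 0.00833, 0.300 after Benjamini-Hochberg adjustment over 36 pairs) and Spearman's rank correlation was 0.94 (exact permutation p = 0.0167, 0.600 adjusted). Without the 2 arrays farthest from the Epha5 median, r was 0.92 over the 4 that remained. After the mean of each genotype was removed, r over the 6 arrays was 0.94 for Epha5 and Epha7. By the same measure, which is given as a description, Epha8 and Ephb3, Epha4 and Ephb6, and Epha3 and Epha7 were each at 0.90, and Epha3 and Epha5 at 0.86. For Epha3, r over the arrays as read was 0.62 with Epha7 and 0.49 with Epha5. Without the 2 arrays farthest from the Epha3 median it was -0.46 and -0.72. The values as read also hold the gap between genotypes, and the within-genotype r was not taken on fewer arrays. Whether the pairs with Epha3 rest on those 2 arrays therefore cannot be told. In deviation from its own group, Epha7 was at 0.11, -0.30 and 0.19 in controls and 0.03, -0.20 and 0.17 in mutants. Epha5 was at 0.04, -0.12 and 0.09 and at -0.04, -0.09 and 0.13, so both genes were lowest in control replicate 2 and mutant replicate 2. Epha3 was lowest in the same arrays of its groups, at -0.10 and -0.05. The low mutant replicate 2 was not particular to these genes, as all 9 receptor genes were below their group mean in it. It was also the lowest mutant for Epha4, Epha6, Epha8 and Ephb3. Control replicate 2 was the lowest control in Epha3, Epha5 and Epha7 only. These readings share an array, a dissection and an RNA sample, and the pair of Epha5 and Epha7 was picked out after the values were seen. Over the 36 pairs the median within-genotype r was 0.22, and 22 were positive.

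**Figure D2:**
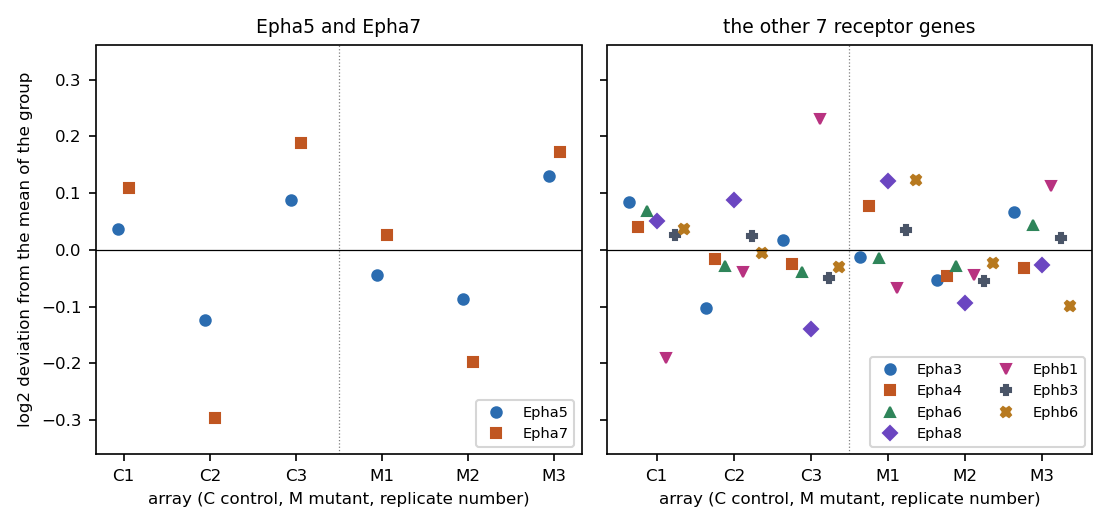
Deviation of each array from the mean of its own genotype group (vertical axis, log2 units) for Epha5 and Epha7 (left) and for the other 7 receptor genes (right), with arrays on the horizontal axis. Both genes on the left lie below 0 in control replicate 2 and mutant replicate 2, with Epha7 at -0.30 and -0.20, and lie above 0 in control replicates 1 and 3 and mutant replicate 3. The other 7 genes also lie below 0 in mutant replicate 2.

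Epha6 and Epha8 had low signals. Epha6 (Entrez 13840, chromosome 16) read 5.36, 5.26 and 5.25 in controls and 5.32, 5.30 and 5.37 in mutants. For orientation, Y-linked genes in the 3 female embryos, which carry no Y chromosome, read 4.68 to 5.59. Epha8, known from the midbrain where it guides axons of the superior colliculus (Entrez 13842, chromosome 4), read 6.68, 6.71 and 6.49 in controls and 6.86, 6.64 and 6.71 in mutants. Hox genes, which mark the hindbrain and spinal cord and are silent in the forebrain, read 5.42 to 7.88 over 3 probe sets. Probe sets differ in affinity and no detection call was used here, so whether Epha6 and Epha8 were above background cannot be told. Their differences were 0.04 and 0.11, with groups that overlapped, and RMA understates changes of dim genes.

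Among the EphB receptors, Ephb1 helps steer axons at the optic chiasm. Ephb1 (Entrez 270190, chromosome 9) read 8.33, 8.48 and 8.75 in controls and 8.34, 8.36 and 8.52 in mutants. Its difference was -0.11 ± 0.11 (SE), with a 95% interval of -0.36 to 0.13, and it came to 0.0031 without control replicate 3, the highest reading. A further Ephb1 probe set, built on a single cDNA, read 6.49, 6.33 and 6.30 in controls and 6.17, 6.39 and 6.10 in mutants, a difference of -0.16 that did not pass either (limma adjusted p = 0.999 over 21789 probe sets). Ephb3, which acts with Ephb2 in the formation of the corpus callosum (Entrez 13845, chromosome 16), read 7.85, 7.85 and 7.78 in controls and 7.82, 7.73 and 7.80 in mutants. Its difference was -0.04 ± 0.06 (SE), with a 95% interval of -0.18 to 0.09, a bound of 1.13-fold lower or 1.06-fold higher on the signal as read. Its readings lie within those of Hoxb3, at 7.58 to 7.88, and above those of Hoxa2 and Hoxb2, so a background share in its signal cannot be told.

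Without Ephb6, the upper ends of the 95% intervals allowed rises of 1.06-fold for Ephb3 to 1.24-fold for Epha7, and the lower ends allowed falls of 1.02-fold for Epha3 to 1.28-fold for Ephb1. The largest unadjusted limma p among the 57 genes called was 0.000141. With the standard errors of the receptor genes, 0.06 to 0.14, a difference of 0.39 to 0.89 would have been needed to reach it. Smaller changes could not be called in this fit. The fit with array weights, which called more genes, called Ephb6 at 0.30, but it leaned on control replicate 2 and mutant replicate 2.

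The 4 Eph receptor genes outside the set, Epha1, Epha2, Epha10 and Ephb4, also showed no change past the threshold, and none had an unadjusted limma p under 0.05. Ephb4, a receptor of venous endothelium, differed by -0.08 and Epha10, a receptor with an inactive kinase domain, by 0.04. A further Epha10 probe set went the other way, by -0.07, and did not pass either (limma adjusted p = 0.999 over 21789 probe sets). The 8 ephrin genes had 7 positive differences with a median of 0.14, and none passed. Their groups did not overlap in 6 of 8, against 10.5% of all genes, and 3 (Efnb3, Efna3 and Efna5) had an unadjusted limma p under 0.05, against 6.05%. Efnb3 and Efna3 had the smallest p, with differences of 0.27 and 0.26 (limma adjusted p = 0.379 and 0.382). Receptors and ligands came from the same 6 arrays, and the difference between the lists was not tested.

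**Figure D3:**
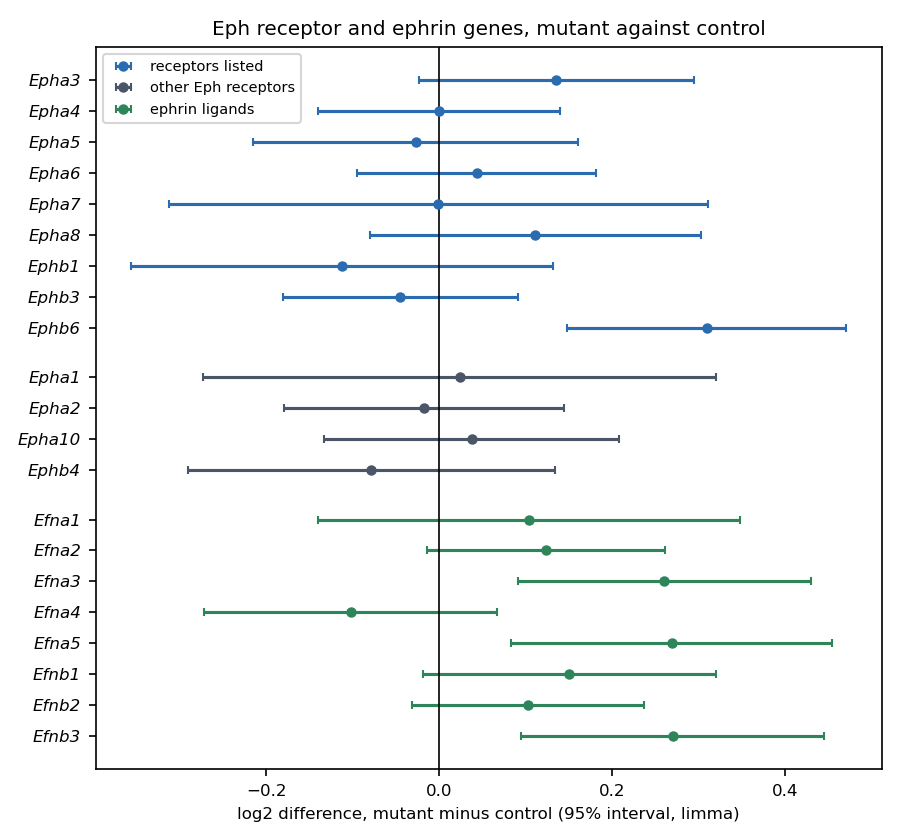
Log2 difference of mutants minus controls (horizontal axis) with the 95% interval of the limma fit for the 9 receptor genes (blue), the other 4 Eph receptor genes (grey) and the 8 ephrin genes (green). Of the 13 receptor genes the interval excludes 0 for Ephb6, at 0.15 to 0.47, and of the 8 ephrin genes for Efna3 (0.09 to 0.43), Efna5 (0.08 to 0.45) and Efnb3 (0.09 to 0.45), and none of the genes drawn passed the adjusted threshold.

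Genes listed as adaptors, regulators, scaffolds, proteases and partners of Eph receptors and ephrins showed no change past the threshold over all genes. Of 76 listed names 69 were measured, and 42 of these had a positive difference, against 60.3% over all genes. Their median difference was 0.01. At an unadjusted limma p under 0.05, 3 of the 69 were higher and 1 was lower, close to the 4.53% and 1.52% of all genes. Of 28 adaptors, kinases and phosphatases, 17 had positive differences. Pik3r1, a regulatory subunit of phosphoinositide 3-kinase, read 10.64, 10.69 and 10.89 in controls and 10.97, 11.03 and 11.20 in mutants, a difference of 0.33 (limma adjusted p = 0.339). Sla, an adaptor related to Src, differed by -0.49 with groups that overlapped (limma adjusted p = 0.884). Of 19 measured regulators of small GTPases, 11 had positive differences. Chn2, which encodes the Rac inhibitor beta-chimaerin, read 10.38, 10.37 and 10.42 in controls and 10.53, 10.58 and 10.59 in mutants, a difference of 0.18 (limma adjusted p = 0.498). Sipa1l1, an inhibitor of Rap that binds Epha4, differed by -0.16 (limma adjusted p = 0.879). Of 22 measured scaffolds, proteases and partners, 14 had positive differences. Mmp9, a secreted protease, read 7.64, 7.68 and 7.68 in controls and 7.30, 7.42 and 7.42 in mutants, a difference of -0.29 (limma adjusted p = 0.163). Rgs3, which links ephrin-B to G protein signalling, differed by 0.22 (limma adjusted p = 0.458).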

How the data were processed

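The deposited log2 values, which lay between 3.41 and 13.8, were made by the authors with RMA in Affymetrix Expression Console, per the submitters' processing notes. No version or genome build is given in the sources used here. RMA equalises the distributions of the arrays, so a shift shared by most genes would not be seen. Gene names came from the platform annotation held by GEO, which can be old: of its probe sets, 21789 of 35556 had 1 symbol, 1621 several and 12146 none. Of those with 1 symbol, 21698 matched a RefSeq gene table (GRCm38.p6) and none needed a new symbol. For each gene the probe set with the highest mean was used, with no filter on low values. The genotypes were compared with limma 3.58.1 (R 4.3.3; lmFit and eBayes, no covariate, 3 against 3 arrays), checked on simulated data. P-values are two-sided and adjusted by the Benjamini-Hochberg method over 19938 genes, and a change is called at an adjusted p under 0.05. Errors are SDs over arrays or moderated SEs. The number of arrays limits the precision. The members and lists were chosen with earlier results of these data known. Named were all members and, of each other pathway list, genes past the threshold and the 2 further genes with the smallest p; Bcl11a served as a check. The markers Ptgds, Hbb-bh1, Ebf1, Foxp1, Neurod4, Dll3, Hopx, Emx1, Tbr1, Neurod6, Fezf2, Bcl11b, Hoxa2, Hoxb2 and Hoxb3 were named after their values were seen. Pathway names that were not measured included Rock2, Pak1, Ptk2, Grin1, Adam13 and Mllt4, an older symbol of Afdn. Alternatives changed normalization, filter, probe sets, weights, variance model, covariate, pairing, threshold and arrays.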

Additional observations from a re-analysis of the deposited data

How the results depend on the processing

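No receptor gene passed in the fits with another normalization, filter, probe set choice, variance model, sex covariate or replicate block, or in any fit that left out 1 array; with array weights 1 passed, Ephb6, and at an unadjusted limma p under 0.05 the count was 1. The number of genes past the threshold, 57 of 19938, was 20 to 50 when 1 array was left out (20 where this was control replicate 2 or mutant replicate 2, 25 for mutant replicate 1 and 33 for mutant replicate 3), 217 with array weights, 87 with a trended robust variance, 24 with the sex covariate, 34 with the replicate block, 107 at an adjusted threshold of 0.1 and 1207 without adjustment at 0.05. Receptor genes with a positive difference numbered 4 of 9, 5 with quantile normalization or the sex covariate, 6 with median centring or array weights, 2 of 6 with the filter on dim genes, and 4 to 7 when 1 array was left out (7 without control replicate 3 or mutant replicate 2). Signs turned in some fits for Epha4, Epha5, Epha7 and Ephb1, and the other receptor genes kept theirs. Epha4 came to 0.012 with quantile normalization and 0.0077 with median centring, and ranged from -0.039 to 0.022 without 1 array. Epha7 came to 0.0069 with median centring, 0.12 with array weights and 0.024 with the sex covariate, and ranged from -0.15 to 0.10 without 1 array. Epha5 came to 0.026 with array weights and ranged from -0.092 to 0.017, and Ephb1 from -0.21 to 0.0031, without 1 array. The cause was not tested. Over all genes, the deviations of arrays that share a replicate number correlated at 0.028, -0.14 and 0.083, so the numbers were not taken to pair the embryos. The share of background in the signals of Epha6, Epha8 and Ephb3, the 3 genes the filter on dim genes left out, could not be told.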

Other observations

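Of 19929 genes outside the receptor set, those closest to Ephb6 over the 6 arrays were Azi2, Nt5dc2 and Paqr4, with Pearson's r of 0.999, 0.998 and 0.996. This is a description: the genotypes do not overlap for any of these genes, so r holds the gap between groups too, and 124 genes, 0.622% of those compared, reached an r over 0.95. Paqr4 read 9.14, 9.12 and 9.10 in control replicates 1, 2 and 3 and 9.72, 9.49 and 9.38 in mutant replicates 1, 2 and 3, so its mutants fell in the same order as for Ephb6. Its log2 difference was 0.41, with a limma adjusted p of 0.163, and that of Azi2 and Nt5dc2 was 0.13 and 0.09.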
